A study of Mus musculus with 6 samples.

Results

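The genes described here are 10 genes of eicosanoid synthesis: the phospholipase Pla2g4a, the cyclooxygenases Ptgs1 and Ptgs2, the prostanoid synthases Ptges, Ptgds and Ptgis, the lipoxygenases Alox5, Alox12 and Alox15, and Alox5ap, the partner protein of Alox5. They were chosen by gene symbol from a count table of 54532 genes, 29764 of which had any count, and all 10 passed the filter on low counts. RNA was sequenced from eWAT, the epididymal white adipose depot, in 3 samples from mice with cachexia and 3 from control mice. Each sample is taken here as a separate mouse, which the labels do not state. All mice were C57BL/6. The methods of the study describe male mice 6 to 10 weeks old, in which cachexia was induced with subcutaneous LLC (Lewis lung carcinoma) cells, a mouse lung cancer line, at 5000000 cells per mouse. A loss of over 20% of body weight defined cachexia, and tissue was taken on day 21. No transgene or knockout is named for these groups, and what the control mice received in place of the cells is not given in the sources used here. The comparison asks how the transcripts of these enzymes differed between the wasting fat pad and the control fat pad.

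Eicosanoids are short-lived signaling lipids made from arachidonic acid, which phospholipases release from membranes. Cyclooxygenases turn arachidonic acid into prostaglandin H2, from which separate synthases make prostaglandins E2, D2 and F2α, prostacyclin and thromboxane, while lipoxygenases make leukotrienes and hydroxylated fatty acids. In adipose tissue, prostaglandin E2 is known to restrain lipolysis through the receptor encoded by Ptger3, and Ptgs2 transcript is widely read as a marker of ferroptosis, the iron-dependent form of cell death that the study examined.

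Levels are in CPM (library sizes corrected with TMM factors) and, where levels of different genes are compared, in the deposited FPKM, which also divides by gene length. The control libraries (replicates 1 to 3) held 18766846, 18475204 and 18855546 counts, and the cachexia libraries 17278966, 15711022 and 14928766 counts. Values are always given in this order of replicates. Differences are log2 fold changes of cachexia over control from edgeR's quasi-likelihood test, with their standard errors (SE) and p-values adjusted over all 16003 genes tested. A gene was called at an adjusted p under 0.05. Beside these, two-sided exact permutation tests over the 6 mice were made on log2 CPM, in which 3 mice against 3 cannot give a p below 0.1. Coordinates are those of the deposited table, which match GENCODE M21, an annotation of the mouse build GRCm38.

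Control replicate 1 stood apart from the other 5 libraries, and this touches some of the genes. A set of 10 epithelial and ciliated-cell genes (Foxj1, Epcam, Cdh16, Pax8, Cldn2, Dnah5, Dnah11, Cfap65, Hnf4a and Elf3), chosen after their values were seen, summed to 356 CPM in that library, against 0.229 CPM and 0.340 CPM in the other controls and 3.15, 0.614 and 1.64 CPM in the cachectic mice. The most abundant of them, Cldn2, was at 58.3 CPM in control replicate 1 and at most 0.933 CPM elsewhere. A list of 10 markers of the epididymal epithelium, none with enough counts to be tested, summed to 5.47 CPM in control replicate 1 and to between 0.983 and 1.46 CPM in the other libraries, and its most abundant gene was Adam7. Values without that library are therefore given for the genes on which it bears, and its tissue content was not tested further.

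Of the 10 genes, edgeR called 1 lower in cachexia (Ptges) and none higher, and 9 were not called. At an unadjusted p under 0.05, 3 were lower (Ptges, Alox15 and Ptgds) and 0 higher, and neither DESeq2 nor limma-voom called any higher. Such unadjusted p-values were common over all genes, since Ptgds, with the largest p of the 3, ranked 4937th by p-value of 16003 genes. Among all genes tested, 17.6% were called, 9.0% as higher and 8.63% as lower, so that 1 called of 10 is a share close to this background. The median log2 fold change of the 10 genes was -0.47, against -0.00306 over all genes tested. It was negative for 9 of the 10, and for 50.2% of all genes. Without control replicate 1, the median of the 10 was -0.26 and 8 were negative. The values of the 3 cachectic mice all lay below those of the 3 controls for Ptges and Alox15 (2 of 10, background 20.1% of all genes) and all lay above them for Alox5ap (1 of 10, background 20.4%). In whole tissue, fewer cells of a type and less RNA per cell cannot be told apart.

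**Figure D1:**
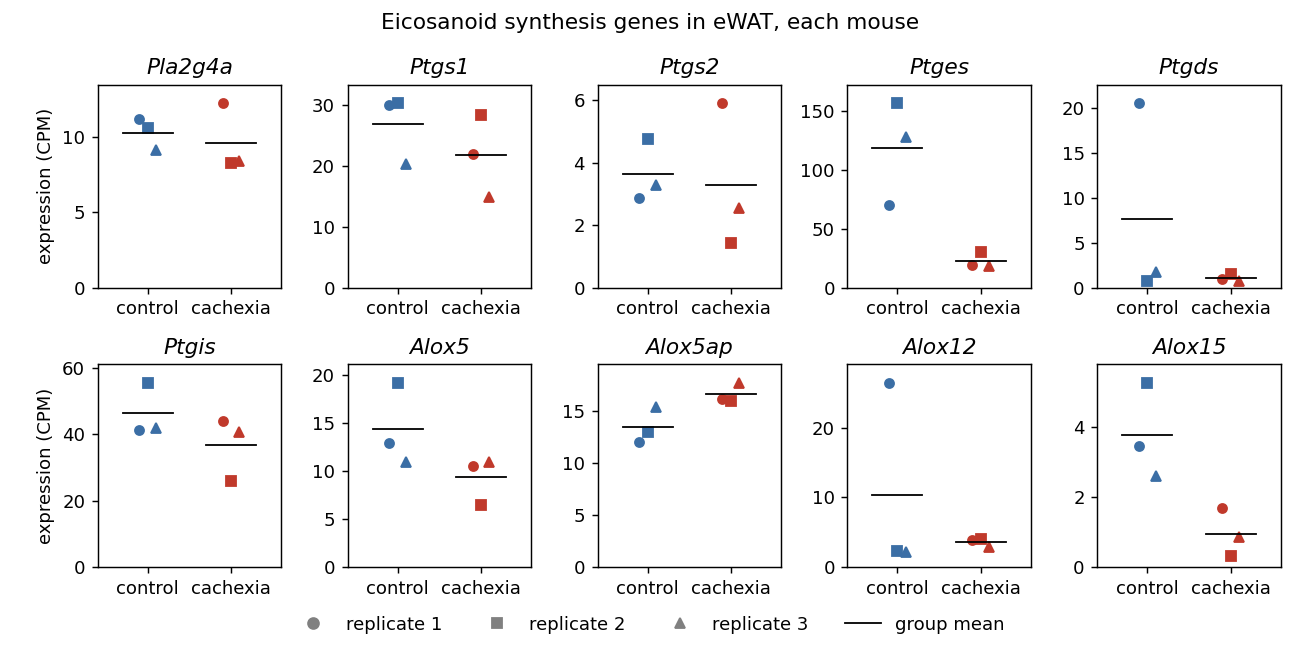
Expression (CPM, linear axis from 0) of the 10 genes in each of the 6 mice, with a symbol for each replicate number and a line at the group mean. The 3 cachectic mice lie between 18.4 and 30.5 CPM for Ptges, below the lowest control at 69.7 CPM, whereas the control means of Ptgds and Alox12 are set by control replicate 1.

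Ptges encodes the inducible, membrane-bound prostaglandin E synthase, which converts prostaglandin H2 to prostaglandin E2 and is classically coupled to Ptgs2. The gene lies at chr2:30889471-30929863 on the minus strand. Its expression was 69.7, 156 and 128 CPM in the controls and 19.5, 30.5 and 18.4 CPM in the cachectic mice. Every cachectic mouse was thus below every control, by a gap wider than the spread within the cachexia group. The mean fell from 118 ± 44.1 CPM to 22.8 ± 6.71 CPM (SD, n = 3 each), a log2 fold change of -2.37 (SE 0.33, edgeR adjusted p = 0.00463). The exact permutation test gave p = 0.1, the smallest this design allows. By p-value, Ptges ranked 333rd among the 16003 genes. Without control replicate 1, the lowest of the controls, the log2 fold change was -2.64 (SE 0.24, edgeR adjusted p = 0.00289). A processed pseudogene on the same strand, Gm13400, lies within the gene and held 3 counts over all 6 libraries.

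Because Ptges was the gene called, its promoter is shown, from 250 bases before to 50 bases after the start that RefSeq gives (GRCm38.p6, chr2:30903248-30903547, minus strand, printed 5′ to 3′). This start lies inside the span that the deposited table gives for the gene. Capitals mark GGGCGG, the letters of the GC box, searched on both strands, which occur at 53 to 48 and 42 to 37 bases before the start.
Ptges: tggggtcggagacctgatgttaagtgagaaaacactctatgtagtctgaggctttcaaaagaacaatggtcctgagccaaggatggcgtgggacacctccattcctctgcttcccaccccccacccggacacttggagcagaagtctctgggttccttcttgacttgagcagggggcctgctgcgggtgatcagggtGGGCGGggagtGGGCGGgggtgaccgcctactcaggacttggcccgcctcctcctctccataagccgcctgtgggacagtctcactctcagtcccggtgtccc
GGGCGG was found in 35.7% of 32851 promoters of this length, and TATAAA, which is not in this window, in 13.6%. A match is a description of the letters, and nothing about binding was measured.

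The other prostaglandin E synthases did not pass the test. Ptges2, a membrane-associated form, had means of 35.9 CPM in control and 26.5 CPM in cachexia (log2 fold change -0.44, SE 0.26, edgeR adjusted p = 0.282). Ptges3, the cytosolic form that is also the Hsp90 co-chaperone p23, had means of 81.2 CPM and 106 CPM, and its log2 fold change of 0.38 was not called (SE 0.19, edgeR adjusted p = 0.193). It was at 87.8, 80.1 and 75.5 CPM in the controls and 88.5, 91.8 and 136 CPM in the cachectic mice. Each cachectic mouse was thus above each control in CPM (two-sided exact permutation p = 0.1), whereas the groups overlapped in FPKM. Per length, Ptges made up 27.9%, 47.2% and 44.4% of the summed FPKM of the 3 synthases in the controls and 9.73%, 14.0% and 6.73% in the cachectic mice. The share of Ptges was lower in all 3 cachectic mice, from a mean of 39.8% ± 10.4 to 10.1% ± 3.64 (SD, n = 3 each, two-sided exact permutation p = 0.1).

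**Figure D2:**
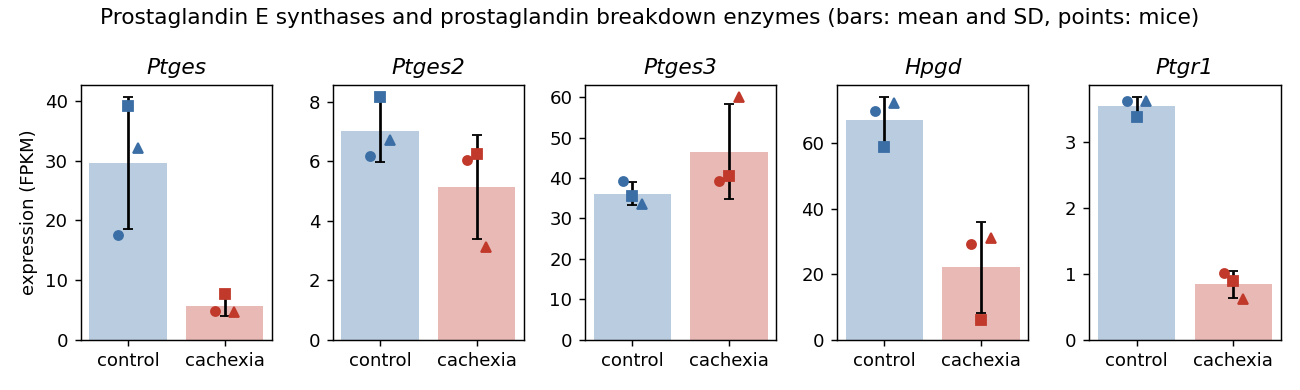
Deposited FPKM (per-length expression, axes from 0) of the 3 prostaglandin E synthases Ptges, Ptges2 and Ptges3 and of the prostaglandin breakdown enzymes Hpgd and Ptgr1, as bars of the group mean with SD and a point for each mouse. Ptges goes from a mean of 29.6 FPKM in control to 5.67 FPKM in cachexia, while the groups overlap in FPKM for Ptges2 and Ptges3 (for Ptges3 not in CPM).

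Upstream of this step, the cyclooxygenases and the phospholipase that feeds them were not called. Pla2g4a, the cytosolic phospholipase A2 that releases arachidonic acid (chr1:149829618-149961290, minus strand), was at 11.2, 10.6 and 9.12 CPM in the controls and 12.2, 8.29 and 8.39 CPM in the cachectic mice. The groups overlapped, with a log2 fold change of -0.10 (SE 0.22, edgeR adjusted p = 0.800).

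Ptgs1, the constitutive cyclooxygenase COX-1 (chr2:36230426-36252272, plus strand), was at 29.95, 30.3 and 20.3 CPM in the controls and 22.0, 28.4 and 14.9 CPM in the cachectic mice. The groups overlapped here too (log2 fold change -0.30, SE 0.26, edgeR adjusted p = 0.448).

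Ptgs2, the inducible cyclooxygenase COX-2 (chr1:150100031-150108227, plus strand), was at 2.86, 4.76 and 3.29 CPM in the controls and 5.89, 1.41 and 2.56 CPM in the cachectic mice. The highest and the lowest of the 6 libraries were both from cachectic mice. The log2 fold change was -0.14 (SE 0.52, edgeR adjusted p = 0.875), and its sign turned when any of 3 libraries was left out, so that no direction can be given for Ptgs2 in these mice. The study, by contrast, reports Ptgs2 as significantly raised in wasting eWAT. It cites for this a heatmap of normalized expression, in the figure of its eWAT RNA sequencing, and no qPCR panel. The reason for this difference was not tested.

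The study also lists a pair of qPCR primers for Ptgs2, and it shows Ptgs2 qPCR for a cultured adipocyte line. They are shown because they state which stretch of the transcript such an assay reads, whereas the counts here cover the gene, and no qPCR value was analysed here. Both match Ptgs2 and no other gene among the GENCODE M21 transcripts, within the coding sequence. The forward primer spans the junction of exons 4 and 5 (chr1:150102119-150102600), with its 5 bases in exon 5 in capitals, and the reverse primer lies in exon 6 (chr1:150103724-150103743). The product is 267 bases long, in a transcript of 4453 bases.
Ptgs2 forward: cccatgggtgtgaaggGAAAT
Ptgs2 reverse: tccatccttgaaaaggcgca

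Per length, Ptgs1 exceeded Ptgs2 in all 6 mice. The log2 ratio of their FPKM was 3.63, 2.91 and 2.87 in the controls and 2.14, 4.57 and 2.78 in the cachectic mice. The means differed by 0.03 between the groups (two-sided exact permutation p = 1), and the cachectic mice spread more widely (SD 1.26) than the controls (SD 0.43).

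Of the remaining prostanoid synthases, Ptgis, the prostacyclin synthase (chr2:167191805-167240604, minus strand), was at 41.4, 55.5 and 42.0 CPM in the controls and 44.1, 25.9 and 40.6 CPM in the cachectic mice. Cachexia replicate 2 was the lowest, and the groups overlapped (log2 fold change -0.33, SE 0.22, edgeR adjusted p = 0.334). Without that mouse the log2 fold change was -0.12. The strand setting of the counting is not given in the sources used here, and Ptgis overlaps 1110018N20Rik (274 counts over all libraries) on the other strand.

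Ptgds, the lipocalin-type prostaglandin D synthase (chr2:25466709-25470046, minus strand), was at 20.6, 0.69 and 1.76 CPM in the controls and 0.93, 1.47 and 0.72 CPM in the cachectic mice. Control replicate 1 alone was high, and the other 5 libraries overlapped. With all mice the log2 fold change was -2.87 (SE 1.15, edgeR adjusted p = 0.122), and without control replicate 1 it was -0.23 (SE 0.57, edgeR adjusted p = 0.819).

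The lipoxygenases showed 3 patterns. Alox15, the 12/15-lipoxygenase that oxygenates arachidonic acid and also fatty acids held in phospholipids (chr11:70344152-70352031, minus strand), was at 3.46, 5.27 and 2.61 CPM in the controls and 1.69, 0.31 and 0.85 CPM in the cachectic mice. These rest on 69, 92 and 46 counts and on 29, 5 and 13 counts. All cachectic mice were below all controls, with means of 3.78 ± 1.36 CPM and 0.950 ± 0.697 CPM (SD, n = 3 each). The log2 fold change was -1.98 (SE 0.59), and the edgeR adjusted p of 0.0539 missed the threshold. It passed in 5 of the 15 other settings that could be fitted, with adjusted p-values between 0.00788 (DESeq2) and 0.156 over all 15, and was 0.0797 in edgeR without control replicate 1.

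Alox12, the platelet-type 12-lipoxygenase (chr11:70241457-70255353, minus strand), was at 26.4, 2.35 and 2.21 CPM in the controls and 3.91, 3.99 and 2.88 CPM in the cachectic mice. As for Ptgds, control replicate 1 was far above the rest. The log2 fold change was -1.52 with all mice (SE 0.91, edgeR adjusted p = 0.277), and it turned to 0.66 without that library (SE 0.32, edgeR adjusted p = 0.214). Neither value passed the test.

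Alox5, which with its partner Alox5ap makes the leukotriene precursor LTA4 (chr6:116410077-116461178, minus strand), was at 12.9, 19.1 and 10.9 CPM in the controls and 10.6, 6.45 and 10.9 CPM in the cachectic mice. The groups overlapped, with a log2 fold change of -0.62 (SE 0.29, edgeR adjusted p = 0.172). Alox5ap, the membrane protein FLAP that presents arachidonic acid to Alox5 (chr5:149264767-149288153, plus strand), was at 12.0, 13.0 and 15.4 CPM in the controls and 16.2, 16.0 and 17.7 CPM in the cachectic mice. Each cachectic mouse was above each control, but by little. The log2 fold change of 0.30 was not called (SE 0.16, edgeR adjusted p = 0.224, two-sided exact permutation p = 0.1). An antisense gene, Gm19719, overlaps Alox5ap and held 55 counts over all libraries.

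**Figure D3:**
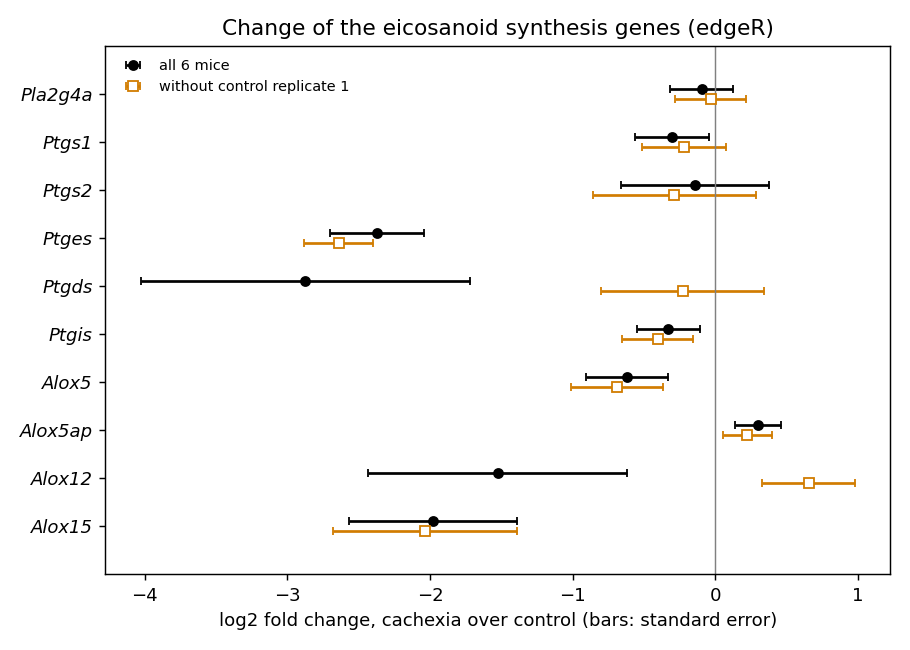
Log2 fold change of cachexia over control (edgeR, bars are SE) for the 10 genes, with all 6 mice (filled circles) and without control replicate 1 (open squares). Ptges stays at -2.37 and -2.64, whereas Ptgds moves from -2.87 to -0.23 and Alox12 from -1.52 to 0.66.

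The order of the 10 genes by FPKM differed between the groups. In the controls, Ptges had the highest mean (29.6 ± 11.0 FPKM), followed by Ptgis (17.8 ± 3.03), Alox5ap (9.37 ± 1.18), Ptgs1 (6.83 ± 1.43), Ptgds (4.60 ± 6.71), Alox5 (3.44 ± 1.03), Alox12 (2.50 ± 3.38), Pla2g4a (1.59 ± 0.165), Alox15 (1.52 ± 0.544) and Ptgs2 (0.783 ± 0.213, SD, n = 3). Of the 9 neighbouring pairs in this order, 6 overlapped in their ranges over the mice, and the 3 that did not were Ptgis with Alox5ap, Alox5ap with Ptgs1, and Alox15 with Ptgs2. The places of Ptgds and Alox12 rest on control replicate 1. Without it, their means over the other 2 controls were 0.731 FPKM and 0.550 FPKM, the lowest of the 10 and below Ptgs2 (0.866 FPKM), and the leading 4 genes kept their places. In cachexia, Ptgis (14.0 ± 3.72 FPKM) and Alox5ap (11.4 ± 0.643) came first and overlapped. Ptges came next at 5.67 ± 1.66 FPKM and overlapped with Ptgs1 at 5.47 ± 1.70. Alox15 was the lowest at 0.379 ± 0.279 FPKM, beside Ptgds (0.618 ± 0.229), Ptgs2 (0.702 ± 0.499) and Alox12 (0.860 ± 0.148), and these neighbours overlapped.

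The rest of the pathway was described by role, from a list of 86 further genes of the table, 55 of which had enough counts to be tested. Of these 55, edgeR called 11 higher and 5 lower, beside 9.0% and 8.63% of all genes, and the median log2 fold change was -0.08. The counts depended on single mice. Without control replicate 3, 1 was higher and 1 lower, while calls over all genes fell from 2821 to 828. Without control replicate 2, 4 were higher and 1 lower, with 1312 calls over all genes. Most calls of single pathway genes given below were thus lost in each of these settings, and single genes were followed only without control replicate 1. Without control replicate 1, where 13.4% of all genes were called, 7 were higher and 4 lower, and 10 of these 11 were also called with all mice. The 6 that lost their call without that library, all with the same direction, were Abcc4, Cyp4f13, Ephx2, Ggt5, Aloxe3 and Pla2g2e. The exception among the 11 was Ggt1, at 37.4 CPM in control replicate 1, 0.0573 CPM and 0.0567 CPM in the other controls, and 0.700, 0.553 and 2.16 CPM in the cachectic mice. Ggt1 encodes γ-glutamyltransferase, which acts on leukotriene C4. It was named after its values were seen. It was not called with all mice (edgeR adjusted p = 0.231) but was called higher without that library (edgeR adjusted p = 0.0419), on a single count in each of the 2 remaining controls.

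**Figure D4:**
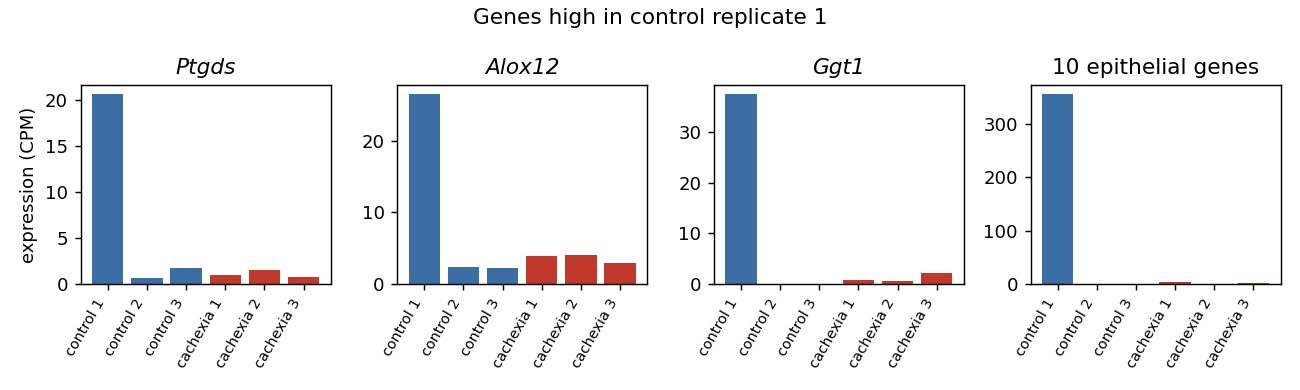
Expression (CPM, linear axes from 0) of Ptgds, Alox12, Ggt1 and the sum of 10 epithelial genes in each of the 6 libraries. Control replicate 1 holds 20.6, 26.4, 37.4 and 356 CPM, and the other 5 libraries hold at most 1.76, 3.99, 2.16 and 3.15 CPM.

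Among phospholipases, 1 gene was higher and 2 were lower of 7 tested. Pla2g7, the secreted enzyme that degrades platelet-activating factor and oxidized phospholipids, was at 23.2, 12.0 and 19.1 CPM in the controls and 37.0, 60.9 and 53.4 CPM in the cachectic mice. It rose in every cachectic mouse above every control (log2 fold change 1.48, SE 0.27, edgeR adjusted p = 0.0119). The secreted Pla2g2e fell by 2.24 on the log2 scale (SE 0.63, edgeR adjusted p = 0.0448) and the calcium-independent Pla2g6 fell by 0.65 (SE 0.18, edgeR adjusted p = 0.0482), both close to the threshold. Without control replicate 1, Pla2g2e was not called (log2 fold change -2.06, edgeR adjusted p = 0.0859), and Pla2g6 was. The most abundant per length, the adipose phospholipase Pla2g16 and the secreted Pla2g12a, with means over all mice of 83.9 and 32.6 FPKM, were not called (log2 fold changes -0.50 and 0.44).

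None of the 6 tested genes that supply arachidonate was called by edgeR or limma-voom, 2 were lower in edgeR at an unadjusted p under 0.05, and DESeq2 called 1 lower (Fads2). The most abundant were the desaturase Fads1 and the elongase Elovl5, with means of 47.2 and 43.8 FPKM and log2 fold changes of -0.27 and 0.20. Fads2, the Δ6-desaturase, was at 43.5, 18.5 and 16.2 CPM in the controls and 12.7, 12.7 and 8.98 CPM in the cachectic mice, and was named after its values were seen. It was not called with edgeR (log2 fold change -1.19, adjusted p = 0.067), and its log2 fold change was -0.60 without control replicate 1.

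Among the 8 other prostanoid synthases, 1 was higher and 1 lower. Cbr1, the carbonyl reductase that can convert prostaglandin E2 to F2α, rose by 0.65 on the log2 scale (SE 0.15, edgeR adjusted p = 0.023), from between 38.1 and 46.0 CPM in the controls to between 58.0 and 75.4 CPM. Akr1b3, an aldose reductase with prostaglandin F synthase activity, fell by 0.63 (SE 0.15, edgeR adjusted p = 0.0259), from between 88.3 and 109 CPM to between 57.1 and 72.7 CPM. The most abundant per length were Ptges3 (41.3 FPKM over all mice) and Fam213b, a prostamide and prostaglandin F synthase (40.0 FPKM), neither of which was called.

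The single other lipoxygenase with enough counts, the epidermal Aloxe3, was called higher (log2 fold change 2.10, SE 0.54, edgeR adjusted p = 0.0345) at low levels, at most 0.688 CPM in the controls and between 1.28 and 3.02 CPM in the cachectic mice. Without control replicate 1 its log2 fold change was again 2.10, and it was not called (edgeR adjusted p = 0.0781).

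Of 7 tested genes that make or convert leukotrienes, 3 were higher (against 9.0% of all genes in edgeR) and none lower with edgeR, DESeq2 or limma-voom, and none was lower at an unadjusted p under 0.05, beside the uncalled Alox5 and Alox5ap that feed them. Lta4h, the hydrolase that makes leukotriene B4, a chemoattractant of neutrophils, was at 68.5, 68.7 and 67.5 CPM in the controls and 116, 95.9 and 129 CPM in the cachectic mice. The controls lay within a narrow range and all cachectic mice above it (log2 fold change 0.74, SE 0.14, edgeR adjusted p = 0.0129). Mgst2, a membrane glutathione transferase that can make leukotriene C4, was at 9.03, 13.6 and 17.4 CPM in the controls and 33.4, 31.8 and 29.2 CPM in the cachectic mice (log2 fold change 1.24, SE 0.23, edgeR adjusted p = 0.0125). Ggt5, which trims leukotriene C4 to D4, had a log2 fold change of 0.51 that was called with all mice (SE 0.13, edgeR adjusted p = 0.0322) but not without control replicate 1 (0.54, edgeR adjusted p = 0.0596). Ltc4s, the dedicated leukotriene C4 synthase, was not called (log2 fold change -0.08). Neither were Mgst3 and Dpep1, the most abundant of this role per length, with means of 163 and 63.5 FPKM.

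Among 6 tested epoxygenases and epoxide hydrolases, Ephx2, the soluble epoxide hydrolase that inactivates epoxyeicosatrienoic acids, was called higher with all mice, but not without control replicate 1 (log2 fold change 0.56, edgeR adjusted p = 0.0734). It was also the most abundant of them, at 85.4 ± 11.8 FPKM in control and 135 ± 15.0 FPKM in cachexia (SD, n = 3 each, log2 fold change 0.67, SE 0.17, edgeR adjusted p = 0.032). The next, Cyp1b1, was at 109, 90.8 and 95.3 CPM in the controls and 132, 144 and 416 CPM in the cachectic mice, and was not called with edgeR (adjusted p = 0.0818), although DESeq2 called it higher (adjusted p = 0.0131).

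Of 8 tested genes of eicosanoid breakdown and transport, 2 were lower and 2 higher. Ptgr1, the reductase that inactivates leukotriene B4 and 15-keto-prostaglandins, was at 8.43, 7.91 and 8.44 CPM in the controls and 2.39, 2.09 and 1.44 CPM in the cachectic mice. The gap between the groups was far wider than the spread within either (log2 fold change -2.06, SE 0.28, edgeR adjusted p = 0.00444). Zadh2, another 15-keto-prostaglandin reductase, fell by 0.71 on the log2 scale (SE 0.15, edgeR adjusted p = 0.0176). Hpgd, the dehydrogenase that starts prostaglandin E2 breakdown and the most abundant gene of this role, was at 119, 101 and 123 CPM in the controls and 50.2, 10.4 and 53.5 CPM in the cachectic mice. The groups did not overlap, yet cachexia replicate 2 was far below the other two, and Hpgd was not called with edgeR (log2 fold change -1.59, SE 0.51, adjusted p = 0.0671), although DESeq2 called it (adjusted p = 0.00539). The prostaglandin exporter Abcc4 (log2 fold change 1.13, SE 0.26, edgeR adjusted p = 0.0248) and Cyp4f13, of the cytochrome family that hydroxylates leukotriene B4 (0.96, SE 0.21, edgeR adjusted p = 0.0205), were called higher with all mice. Without control replicate 1 neither was called (edgeR adjusted p = 0.0590 for Abcc4 and 0.0513 for Cyp4f13), with log2 fold changes of 1.13 and 0.93.

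Of 12 tested receptors, 2 were higher and none lower with edgeR, and 3 were higher and 1 lower at an unadjusted p under 0.05 or by DESeq2. Ptger2, the Gs-coupled prostaglandin E2 receptor EP2, was at 3.71, 4.41 and 4.87 CPM in the controls and 7.93, 11.5 and 9.11 CPM in the cachectic mice (log2 fold change 1.13, SE 0.25, edgeR adjusted p = 0.0203). Fpr2, a receptor on myeloid cells for formyl peptides and lipoxin A4, was at 0, 0.229 and 0.170 CPM in the controls and 1.40, 4.42 and 6.36 CPM in the cachectic mice (edgeR adjusted p = 0.0112). Its controls held so few counts that the fitted log2 fold change, 4.90, depends on the prior count. Ptger3, the Gi-coupled receptor EP3, was at 22.1, 91.9 and 59.4 CPM in the controls and 21.9, 37.8 and 8.59 CPM in the cachectic mice, with control replicate 1 among the cachectic values, and was not called (log2 fold change -1.34, SE 0.60, edgeR adjusted p = 0.159). Cmklr1, a receptor for chemerin and resolvin E1 and the most abundant of the receptors per length (31.5 FPKM over all mice), had a log2 fold change of 0.09.

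**Figure D5:**
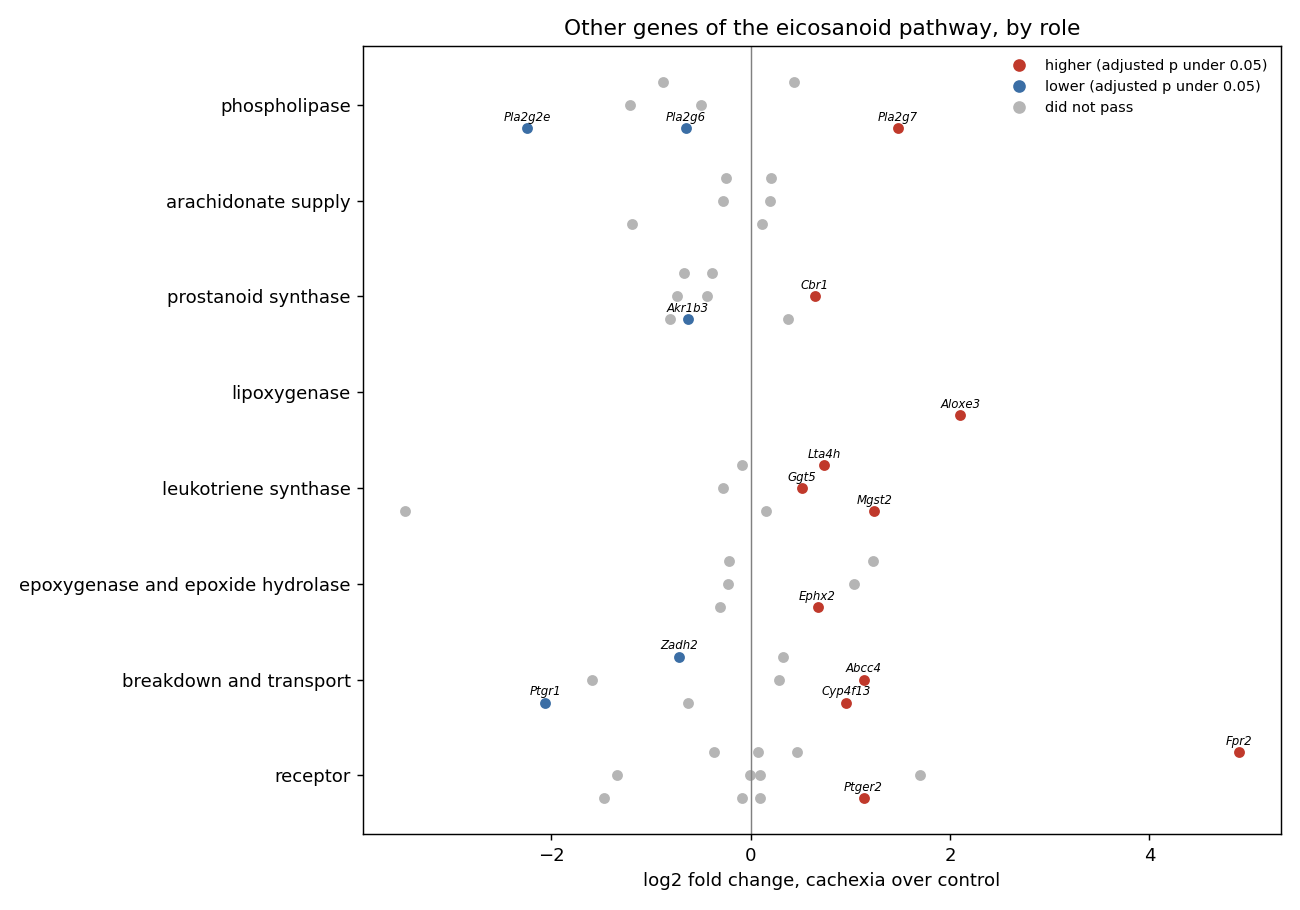
Fitted log2 fold change of cachexia over control for the 55 other tested pathway genes, a point for each gene in a row for its role, with the 11 genes called higher in red, the 5 called lower in blue and the rest in grey. Ptgr1 (-2.06) and Pla2g2e (-2.24) lie farthest left among the called genes, and Fpr2 (4.90), which has few control counts, farthest right.

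Some of these genes overlap others, and how shared reads were counted is uncertain. Mgst2 overlaps Gm37261 (280 counts over all libraries) and Hpgd overlaps Gm45540 (122 counts), both on the same strand, and Pla2g7 overlaps 1700071M16Rik (59 counts) on the other strand.

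Markers of several cell types moved between the groups in which these genes were compared. The marker counts here and below stand beside 9.0% of all genes called higher and 8.63% called lower with edgeR. DESeq2 called 3884 of all 16003 genes in either direction, and limma-voom 2764. Of the progenitor and fibroblast markers, 3 of 8 fell (Col1a1, Col3a1 and Pi16) and 1 rose (Ly6a). Their summed level was 6009, 5252 and 5844 CPM in the controls and 3391, 2840 and 2480 CPM in the cachectic mice, with Dcn the most abundant over all mice and Col3a1 in the controls. Without Col1a1 and Col3a1, both collagen genes, the other 6 summed to a mean of 2595 CPM in the controls and 2528 CPM in the cachectic mice, a ratio of 0.974. The summed neutrophil markers were at 32.5, 49.9 and 33.0 CPM in the controls and 290, 259 and 819 CPM in the cachectic mice, with S100a9 the most abundant. Of the 10 tested, 9 were called higher with edgeR, 7 with DESeq2 and 7 with limma-voom. The erythroid markers rose in 6 of 6, led by Hbb-bs, with a ratio of summed means of 6.89. Macrophage markers summed to a ratio of 0.939 (2 of 10 higher, 1 lower, led by Lyz2). Peritoneal macrophage markers summed to a ratio of 1.65 (3 of 7 higher, 1 lower), led by Selp, which endothelium and platelets also express. Without Selp the ratio was 1.03. Of the 7, 4 (Cd5l, Timd4, Garnl3 and Gata6) were lower in each cachectic mouse than in each control, beside 20.1% of all genes. The other 3 were higher in each, beside 20.4% of all genes. Of the 4, edgeR called Garnl3 and DESeq2 called 3.

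Eosinophils are a known source of Alox15 in mouse tissues. Of their 8 markers, only Ear2 had enough counts to be tested and made up 92.1% of the sum, which was 17.9, 30.1 and 22.6 CPM in the controls and 7.93, 5.34 and 15.0 CPM in the cachectic mice. Ear2 was not called with edgeR and was called lower with DESeq2 and limma-voom. Ear6 was at 0 in all 6 libraries, and the defining markers Epx and Siglecf were at most 0.0656 and 0.688 CPM. Mast cell markers fell in 3 of 7 tested (Cma1, Cpa3 and Mcpt4), with a ratio of sums of 0.724 and Kit the most abundant. That ratio leans on Kit in cachexia replicate 2, at 63.0 CPM of a sum of 87.6 CPM, against 8.57 and 11.5 CPM in the other cachectic mice. Kit and Hdc had positive log2 fold changes (0.39 and 0.30), and Tpsab1 and Tpsb2 negative ones, none called by edgeR. Hdc was at 25.1, 2.52 and 3.57 CPM in the controls and 9.91, 11.3 and 17.5 CPM in the cachectic mice. Of the platelet markers 1 of 4 tested was lower, Pf4, which made up 87.5% of their sum and so set its ratio of 0.704. The other 3 tested, Gp1ba, Itga2b and Ppbp, had positive log2 fold changes (1.25, 1.11 and 1.58) that edgeR did not call, while DESeq2 called 2 platelet markers higher, and Gp1bb was at 0. Mesothelial markers, led by Upk3b, were called in none of 8 by edgeR, DESeq2 or limma-voom (ratio 0.789), with 1 lower in edgeR at an unadjusted p under 0.05.

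Endothelial markers were higher in 2 of 8 with edgeR and in 5 of 8 with DESeq2 (ratio 1.72, led by Pecam1). Over all 16003 genes, edgeR called 9.0% higher, and DESeq2 called 3884 in either direction. Smooth muscle markers were lower in 1 of 7, Rgs5, their most abundant gene (ratio 0.605). The adipocyte markers that define the labelled tissue were abundant in all 6 libraries, at 15744, 18084 and 20743 CPM in the controls and 24806, 15281 and 27372 CPM in the cachectic mice, led by Fabp4. Of these, 2 of 8 were higher (Cidec and Pnpla2) and 1 lower (Lep) with edgeR, and DESeq2 called 2 lower. Plin1 was lower in each cachectic mouse than in each control, and edgeR did not call it (log2 fold change -1.44, adjusted p = 0.0570). The part of any of these cell types in the values of Ptges, Alox15 and the other genes was not tested.

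As a description, the genes whose log2 CPM followed each member most closely over the 6 mice were sought among 13164 protein-coding genes. For Ptges they were Xpo6 (Pearson's r = 0.999), Mapkapk3 (0.998) and Vac14 (0.997). For Alox15 they were Gsta4 (0.993), Selenon (0.993) and Trappc2 (0.986), and for Ptgs2 they were Ndufc1 (0.980), Prpsap2 (0.974) and Adamtsl3 (0.973). Those of Ptgds (Slc30a2, 0.995, Scrn2, 0.994, and Ccdc189, 0.994) and of Alox12 (Ulk4, 0.994, Dnaja4, 0.994, and Cldn10, 0.993) share the high value of control replicate 1. For the other 5 genes, the closest were Bcl2l12 for Ptgs1 (0.972), Tnxb for Ptgis (0.991), Agk for Alox5 (0.987), A930033H14Rik for Alox5ap (0.982) and Ears2 for Pla2g4a (0.985). With 6 points from the same 2 groups and so many candidates, values of this size carry no test.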

How the data were processed

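Total RNA of 6 eWAT samples was sequenced. After quality filtering, the authors used Hisat2 for alignment and featureCounts 1.5.0-p3 for counting, and the deposited raw counts are not normalized. The authors also deposited FPKM values, which follow from count, gene length and a scaling of each library. Against scaling by plain totals, they differed by a constant factor per library, from 0.932 (control replicate 1) to 1.06 (control replicate 3). Processing notes of the submitters list the build mm9, but 99.8% of the identifiers are in GENCODE M21 (GRCm38), 98.3% of these with the same coordinates, all 10 members included. A deposited table of the authors' fold changes and p-values, made with DESeq2 1.16.1, was not used here.

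The tests used edgeR 4.0.16 in R 4.3.3. Low genes were removed with filterByExpr, libraries were scaled by TMM, and the quasi-likelihood test compared the 2 groups without covariates. P-values of the 16003 genes were adjusted by Benjamini-Hochberg and called under 0.05. The biological coefficient of variation was 0.264 and TMM factors lay between 0.937 and 1.07. Single genes were also tested by two-sided exact permutation on log2 CPM with a pseudocount of 0.5. Samples were grouped by their labels. Nothing states how the samples of a group were kept apart beyond their labels, so p-values measure the spread between these samples.

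The members and the lists of pathway and marker genes were chosen with earlier results of these data known. Named are all members, each pathway gene called, the 2 most abundant genes per role by FPKM, the most abundant gene of each marker list and the 3 genes most alike to a member (the closest alone for 5 members). Named outside this rule, after their values were seen, are Ptges2, Ltc4s, Fads2, Ggt1, the epithelial genes and the marker genes that do not lead their list. Promoters come from RefSeq (7 of 10 members matched), and the scripts were tested on simulated counts. The alternatives were RLE factors, plain totals, no filter, at least 10 counts in every sample, DESeq2 1.42.0, limma-voom, a replicate block, protein-coding genes alone, limma 3.58.1 on log2(FPKM + 1) or log2(FPKM + 0.1), and leaving out each sample.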

Additional observations from a re-analysis of the deposited data

How the results depend on the processing

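Ptges kept its direction and its call in all 16 alternatives, with log2 fold changes from -2.64 to -2.12 and adjusted p-values from 2.90e-11 (DESeq2) to 0.0252. The count of members called lower was 2 in place of 1, Alox15 being the second, with DESeq2, limma-voom, and limma on log2(FPKM + 1) or log2(FPKM + 0.1), and ranged from 1 to 2 as single mice were left out (2 without cachexia replicate 1). Members called higher were 0 in every setting. The filter of 10 counts in every sample left Alox15 untested. Pathway genes called higher ranged from 1 (without control replicate 3) to 9 with mice left out, and those called lower from 1 (without control replicate 2 or 3) to 5. Genes called lower were 10 with DESeq2, 3 among protein-coding genes alone and 3 with the replicate block. Over all genes, calls numbered 3884 with DESeq2, 2187 without control replicate 1, 1312 without control replicate 2, 828 without control replicate 3 and 1881 with the replicate block. Mice with the same number did not deviate together (correlations -0.00314, -0.0113 and 0.00849). This showed no sign of pairing by number, but with so few samples per group it cannot exclude pairing. With mice left out, log2 fold changes ranged from -2.00 to 0.66 for Alox12, from -2.70 (without cachexia replicate 1) to -1.56 (without cachexia replicate 2) for Alox15, from -0.87 to 0.22 for Ptgs2, from -0.31 to 0.00618 for Pla2g4a, from -0.54 (without cachexia replicate 2) to -0.0893 (without cachexia replicate 3) for Ptgs1, from -0.48 to -0.12 for Ptgis and from -0.79 to -0.36 (without control replicate 2) for Alox5. Signs turned for Alox12 without control replicate 1 (0.66), for Ptgs2 without control replicate 2 (0.0990), cachexia replicate 2 (0.22) or cachexia replicate 3 (0.0146), and for Pla2g4a without cachexia replicate 2 (0.00618). The difference in the log2 ratio of Ptgs1 to Ptgs2 ranged from -0.675 to 0.54 with mice left out, and was -0.0861 without control replicate 2, -0.106 without control replicate 3 and -0.675 without cachexia replicate 2. The cause of these shifts was not tested. Precision differed between members, with an SE of the log2 fold change from 0.16 (Alox5ap) to 1.15 (Ptgds, 0.57 without control replicate 1).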
